A study of Mus musculus with 24 samples.

Results

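Rev-erbα (gene Nr1d1) bound 423 sites in mouse epididymal white fat (eWAT) that also carried a peak in brain and a binding border in liver. They were selected on their positions: of the 9016 peaks of the eWAT list, 706 shared 1 bp or more with a peak of the brain list, and 423 of these also had their centre within 100 bp of a border mapped by ChIP-exo in liver. Every value that enters this choice, or comes from the same lists, is given as a description without a test. That holds for the peak scores and ranks and for the number, strand, signal and position of borders. The sequence under the sites and their position relative to genes did not enter the choice and were tested.

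The series held 24 samples in 16 groups, and 5 samples in 3 groups stand behind the lists used here. For eWAT these were 2 libraries of Rev-erbα ChIP-seq, and for brain, dissected at the ventral tegmental area, 1 library. Liver contributed 2 libraries of Rev-erbα ChIP-exo, a variant in which exonucleases trim the precipitated DNA back to the protein. All 3 groups came from C57BL/6J wild type mice at zeitgeber time 10 (ZT10, hours after lights on), and the labels name the same Rev-erba antibody from Cell Signaling for all. Liver ChIP-seq, the DNA-binding domain mutant, the HDAC3 and ROR libraries and the inputs were not analysed here. The labels state neither the age of the mice nor how many went into a library. Each group was represented by 1 list (9016 eWAT peaks and 10687 brain peaks, each 150 bp wide, and 245360 liver borders), so there was no spread between replicates and the sequencing depth was unknown. The p-values below compare sites within these lists, not animals, and neighbouring sites are not independent. Intervals of percentages are 95% Wilson intervals that cover counting error only.

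Rev-erbα and its paralogue Rev-erbβ (gene Nr1d2) are nuclear receptors that bind heme and repress transcription by recruiting the NCoR and HDAC3 corepressor complex. They recognise the half-site AGGTCA, best when an A/T-rich stretch precedes it (the response element shared with the ROR receptors, called RORE here) or when a pair of half-sites is repeated with a spacing of 2 (RevDR2). The clock activators BMAL1 and CLOCK, or its relative NPAS2, bind the E-box CACGTG and drive Nr1d1, Nr1d2, the Per and Cry genes and Dbp. DBP, HLF and TEF activate, and NFIL3 represses, through the D-box (TTATGTAA or TTACGTAA).

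Short stretches of the sites are shown first, since the results turn on which of these motifs lie there. They are named by the gene with the nearest start. Each is 81 bp of the mm9 plus strand, from 40 bp before to 40 bp after the eWAT peak centre, with every match to an E-box, D-box, half-site, RORE or direct repeat in capitals on whichever strand it lies. Of the 20 sites with the best mean of eWAT and brain rank, 1 held a RORE or direct repeat outside annotated exons, in an intergenic region 27231 bp upstream of Hlf. There an E-box and a RORE, read as its reverse complement, stand side by side.
Hlf site, chr11:90279422-90279502: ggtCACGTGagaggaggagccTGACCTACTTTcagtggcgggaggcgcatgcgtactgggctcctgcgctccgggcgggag

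The next 6 were picked after their values were seen, as E-box sites with a liver border at 8 to 14 bases on both sides of the E-box. They show the motif most often met among the sites, here without a RORE or direct repeat. Nr1d1 is represented by its intronic site 1380 bp downstream of the start, and Tsc22d3 by an intergenic site over 10 kb from its starts. The sites of Hif1a, Por, Eif5a2 and Gstt2 lie within 1 kb of the start of the gene named.
Nr1d1 site, chr11:98635133-98635213: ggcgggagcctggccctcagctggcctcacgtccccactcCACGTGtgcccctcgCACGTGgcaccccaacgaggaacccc
Tsc22d3 site, chrX:137054879-137054959: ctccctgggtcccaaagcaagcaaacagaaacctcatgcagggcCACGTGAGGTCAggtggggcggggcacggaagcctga
Hif1a site, chr12:75008689-75008769: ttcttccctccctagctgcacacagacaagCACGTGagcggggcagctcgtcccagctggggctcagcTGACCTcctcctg
Por site, chr5:136150811-136150891: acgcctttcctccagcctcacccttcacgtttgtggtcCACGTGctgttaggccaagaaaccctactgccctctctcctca
Eif5a2 site, chr3:28680023-28680103: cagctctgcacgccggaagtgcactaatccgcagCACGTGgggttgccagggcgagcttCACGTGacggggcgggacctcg
Gstt2 site, chr10:75298272-75298352: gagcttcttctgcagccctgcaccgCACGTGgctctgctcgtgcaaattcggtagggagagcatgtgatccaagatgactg

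Of the 16 sites with a RevDR2, 14 hold it within 40 bp of the centre, and the 4 below have the highest eWAT scores among these outside exons, again picked after values were seen. They show that the RevDR2 of these sites was often part of a longer tandem array of half-sites, with TGACCT being the half-site read on the other strand. The sites named 1700010I14Rik and Jakmip3 lie in introns, and those named 2410131K14Rik and Il12b are intergenic.
1700010I14Rik site, chr17:9188385-9188465: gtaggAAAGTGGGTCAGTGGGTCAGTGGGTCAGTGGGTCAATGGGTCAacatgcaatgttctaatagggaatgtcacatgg
2410131K14Rik site, chr5:118742255-118742335: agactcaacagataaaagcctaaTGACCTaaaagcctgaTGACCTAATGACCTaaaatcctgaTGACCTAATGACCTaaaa
Il12b site, chr11:43986801-43986881: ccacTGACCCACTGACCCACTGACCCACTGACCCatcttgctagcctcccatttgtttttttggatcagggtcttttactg
Jakmip3 site, chr7:146168921-146169001: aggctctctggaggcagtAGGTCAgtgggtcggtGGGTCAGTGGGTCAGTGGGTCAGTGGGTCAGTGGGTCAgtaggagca

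The last 3, picked the same way, hold a D-box, in an intron of Igsf8, near the start of Nr1d2 and near the start of Fam76a. The Nr1d2 stretch holds an E-box as well.
Igsf8 site, chr1:174240321-174240401: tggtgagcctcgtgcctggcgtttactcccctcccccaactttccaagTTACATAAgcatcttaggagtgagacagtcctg
Nr1d2 site, chr14:19071076-19071156: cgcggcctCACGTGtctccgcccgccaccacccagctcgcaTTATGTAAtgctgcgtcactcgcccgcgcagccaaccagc
Fam76a site, chr4:132478584-132478664: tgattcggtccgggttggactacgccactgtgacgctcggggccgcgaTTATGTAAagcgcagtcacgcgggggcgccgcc

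The sites ranked high in both tissues. The authors' eWAT scores of the 423 ran from 10.1 to 281.6 with a median of 36.5, against 14.2 over all 9016 eWAT peaks. Brain scores ran from 18.2 to 516.3 with a median of 43.6, against 25.5 over all brain peaks. The scores have no stated unit and were compared only within a list. Of the 10 highest-scoring peaks, 9 of the eWAT list and 9 of the brain list were among the sites. The sites took 73 of the ranks within 100 in eWAT and 50 in brain, and 28 sites lay within rank 100 in both. A score above the list's median was found for 380 of them in eWAT and 337 in brain.

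Agreement between the tissues was partial over the 423 sites. Spearman's rho over the 423 sites was 0.478 between eWAT and brain scores, 0.545 between eWAT score and summed liver border signal, and 0.359 between brain score and border signal, as a description of points that share their genome positions and local base composition. The eWAT and brain centres lay a median of 31 bp apart, and 354 sites overlapped by at least 75 bp. Each site had 1 to 8 liver borders within 100 bp (median 2), with a summed signal of 0.115 to 91.99 (median 2.58). Borders lay on both strands at 284 sites (67.1%), and 208 (49.2%) had a plus border with a minus border 5 to 60 bp downstream.

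**Figure D1:**
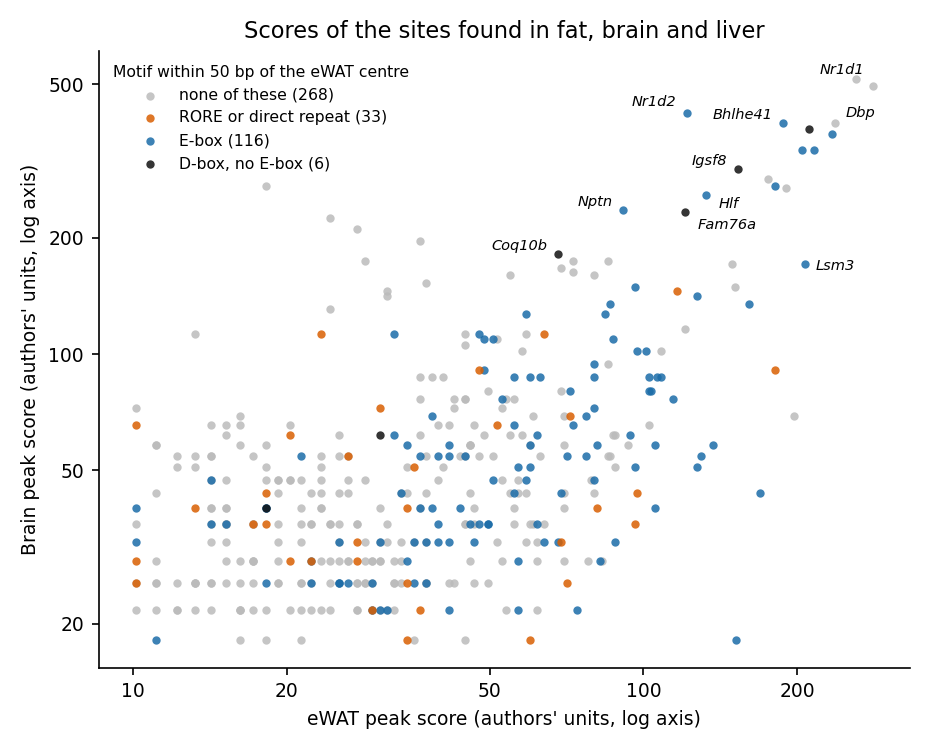
Each point is 1 of the 423 sites, with its eWAT score (x axis) and brain score (y axis), both in the authors' units on log axes, coloured by the motif within 50 bp of the eWAT centre (sites with an E-box and another motif are drawn as E-box). Of the 15 sites with scores above 100 in eWAT and 200 in brain, 12 have a core clock gene nearest. The core clock list holds 23 of 22208 genes. This count is a description, since the cut-offs are on the plotted scores and the clock list was chosen with the leading peaks known. The RORE or direct repeat sites have a median eWAT score of 34.4.

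At the limits of the choice, the 3 sites whose nearest border was farthest had Neurl1a, Mcmbp and Tkt as nearest genes. Their starts were 73646, 10085 and 6749 bp away, and the first site lay in an intron of Sh3pxd2a. The borders were at 93, 97 and 98 bp and the eWAT ranks were 129, 1878 and 3512. The 3 shared peaks just beyond the limit had Ttc17, Gm11735 and Abi1 as nearest genes, with borders at 105, 107 and 107 bp and eWAT ranks of 1553, 2526 and 967. Only 6 sites owed their place to an overlap under 10 bp.

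Core clock genes carried the leading sites. A site lay within 10 kb of a start of 14 of 23 core clock genes, against 1.21% of 22208 protein-coding genes. For the other classes of eWAT peaks the counts were 0 of 23 for peaks shared with brain but without a liver border (0.549% of all genes), 10 of 23 for peaks with a liver border but no brain peak (4.65%) and 3 of 23 for peaks in eWAT alone (9.11%). These counts are a description, since the clock list was chosen with the leading peaks known, and clock genes with several sites are counted once.

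Among the receptors, Nr1d1 itself had 3 sites. The peak 8158 bp upstream of its start, in an intergenic region (chr11:98644730-98644879), had the highest eWAT score of the list, 281.6, and the second rank in brain with 494.5. The peak 37 bp upstream of the start (chr11:98636609-98636758) scored 260.4 in eWAT and had the highest brain score, 516.3. The intronic peak (chr11:98635098-98635247) scored 234.0 and 370.9, ranks 4 and 7. Nr1d2, encoding Rev-erbβ, had a site 429 bp downstream of a start (chr14:19071041-19071190) that stood higher in brain, with rank 3 and 421.8, than in eWAT, with rank 31 and 121.6. Rora, encoding an activator that competes for the same element, had a weaker site, at eWAT rank 221 and brain rank 2367.

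Of the repressor arm, Per2 had a site 70 bp upstream of its start that ranked 6 in both tissues (210.7 and 381.8). Per1 had a pair, 347 bp and 150 bp upstream of annotated starts, with scores of 215.8 and 127.6 in eWAT and 338.2 and 141.8 in brain. Cry2 had an intronic site 8492 bp from its start, at ranks 13 and 14, and one 161 bp upstream of the start, at ranks 21 and 34. Ciart, a repressor of CLOCK and BMAL1, had a site 69 bp upstream of its start at rank 9 in each list. Bhlhe41, encoding a repressor that competes for E-boxes, had its strongest site 9457 bp from the start, at ranks 12 and 4, and 2 weaker ones nearer to it. The Bhlhe40 sites numbered 3, at eWAT ranks 192, 1303 and 1553 and brain ranks 96, 1166 and 20.

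The D-box activator Dbp had 2 sites within its gene body, 126 bp and 454 bp from annotated starts, at eWAT ranks 3 and 11 and brain ranks 4 and 16. Hlf had the intergenic site printed above, at ranks 25 and 17, which lies beyond 10 kb, and 2 sites near starts at eWAT ranks 779 and 901. Npas2, the partner of BMAL1, had a site 895 bp from a start at ranks 35 and 52, with a RORE. The sites of Npas2, Rora and Bhlhe40, the weaker ones of Hlf and Bhlhe41, and the Por site were beyond the number of names set per list and are given to show more of it.

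Circadian output genes and regulators that respond to light or feeding had a site within 10 kb in 9 of 20 cases (45%, against 1.21% of all genes). Peaks with a liver border but no brain peak had 3 (15%, against 4.65%) and peaks in eWAT alone 5 (25%, against 9.11%). Shared peaks without a border had 1 (5%, against 0.549%). This list too was chosen with earlier results of these data known, so the counts are a description. The 9 genes were Klf10, Klf15, Por, Cdkn1a, Per1, Hif3a, Tspan4, Leo1 and Pfkfb3. Cdkn1a, encoding the cell cycle inhibitor p21, had the strongest of these after Per1, at ranks 20 and 49, 923 bp downstream of a start. Tspan4 stood high in eWAT (rank 26) and lower in brain (rank 771). Por, the electron donor of cytochromes P450, ranked 36 and 290.

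Of 27 adipocyte genes 3 (11.1%, against 1.21% of all genes) had a site within 10 kb, namely Dgat2, the last step of triglyceride synthesis (ranks 43 and 260), Gpam, its first step (ranks 325 and 2367), and Cebpb (ranks 2072 and 771, a site 336 bp upstream of a start of Tmem189). The same list had 12 genes (44.4%, against 4.65% of all genes) near eWAT peaks with a liver border but no brain peak and 10 (37.0%, against 9.11%) near peaks in eWAT alone. Of 24 neuron genes only Elavl3 had a site (4.17%). Urod was the single one of 10 heme genes (10%) and Tbl1x, a corepressor subunit, the single one of 6 complex genes (16.7%). Each of these shares is 1 gene, beside 1.21% of all genes. None of the 30 lipid and glucose genes, 20 hepatocyte, 18 dopamine neuron, 18 glia or 16 stromal, vascular and immune genes had a site, in lists so short that the share of all genes, 1.21%, amounts to less than 1 gene in each. Nuclear receptors had 5 of 44 (11.4%, against 1.21% of all genes), among them Nr1d1, Nr1d2, Rora and Thra. Peaks with a liver border but no brain peak had 9 of the 44 (20.5%, against 4.65%). Peaks in eWAT alone had 5 (11.4%, against 9.11%) and shared peaks without a border 1 (2.27%, against 0.549%). The lists hold no expression values, so the tissue labels were not checked against marker RNA.

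Several leading sites lay near genes outside the core clock list. The site 88 bp upstream of Katnal1, a katanin-like gene, ranked 15 and 13 and had the highest summed border signal of all, 91.99. Igsf8 (ranks 18 and 12), Fam76a (32 and 19) and Coq10b (135 and 27) carried D-boxes. An intergenic site with Lsm3 as its nearest gene, 83134 bp away, ranked 8 and 34 and held 2 E-boxes. Pfkfb3, a regulator of glycolysis and a gene of the circadian output list, had an intergenic site 33448 bp upstream (ranks 17 and 60) besides one near its start, and Nptn had one 154 bp upstream (ranks 60 and 18).

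The sites lay near transcription starts far more often than other eWAT peaks. Of the 423, 128 (30.3%, 26.1 to 34.8) were within 1 kb of a start, 157 (37.1%) in introns, 5 in exons and 133 (31.4%) intergenic. Among peaks shared with brain but without a liver border 7.77% were within 1 kb of a start (odds ratio 5.14, 95% interval 3.14 to 8.75, exact test, adjusted p = 7.72e-14). Among peaks with a liver border but no brain peak the share was 12.3% (odds ratio 3.09, 2.40 to 3.95, exact test, adjusted p = 3.81e-18), and among peaks in eWAT alone 5.95% (odds ratio 6.85, 5.38 to 8.70, adjusted p = 1.11e-47). Each p is from Fisher's exact test, two-sided, adjusted by the Benjamini-Hochberg method over the 3 comparisons.

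**Figure D2:**
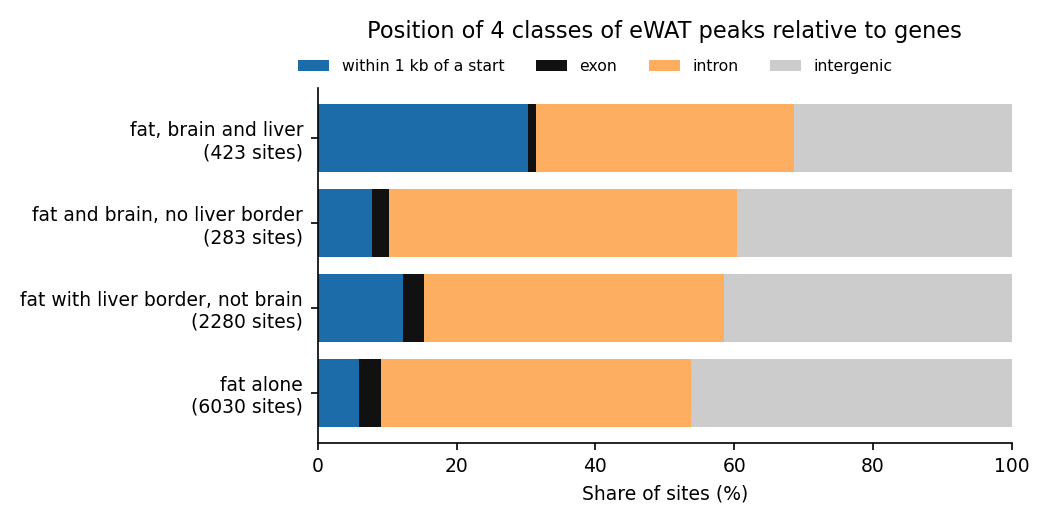
Bars show the share of sites (x axis, percent) in each of 4 classes of eWAT peaks (rows) whose centre lies within 1 kb of a transcription start, in an exon, in an intron or between genes. The start-proximal part is 30.3% for the sites in fat, brain and liver and 5.95% to 12.3% in the other classes.

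CpG content followed the starts but not entirely. A window of 500 bp to each side with GC over 50% and an observed to expected CpG ratio over 0.6 was found at 102 sites (24.1%), against 2.47%, 5.04% and 1.21% in the same 3 classes (odds ratios 12.5, 5.98 and 25.9, adjusted p = 1.34e-17, 2.04e-30 and 1.34e-77, Fisher's exact test). Of these 102, 89 were within 1 kb of a start. Over 1 kb from every start the share was 13 of 295 (4.41%), against 0.766%, 0.60% and 0.194% (exact test, adjusted p = 0.00816, 3.77e-06 and 3.74e-11). The first of these rests on 2 comparator sites and its odds ratio of 5.95 had an interval of 1.33 to 54.9.

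The E-box was the most frequent motif of the sites and, with the SP/KLF box described below, 1 of the 2 that were more frequent than in each of the 3 other classes. CACGTG lay within 50 bp of the eWAT centre at 116 sites (27.4%, 23.4 to 31.9), and within the same width 1000 bp to each side in 1.42% of windows. The share was 7.42% in peaks shared with brain but without a liver border (odds ratio 4.71, 2.84 to 8.12, exact test, adjusted p = 1.60e-10). It was 14.5% in peaks with a liver border but no brain peak (odds ratio 2.23, 1.73 to 2.86, exact test, adjusted p = 5.36e-09) and 5.80% in peaks in eWAT alone (odds ratio 6.13, 4.78 to 7.83, adjusted p = 7.64e-39). Motif tests are Fisher's exact tests, two-sided, adjusted over 60 tests (20 motifs, 3 comparisons). Over 1 kb from starts, 21.4% of the sites held an E-box, against 7.28%, 13.9% and 5.96% (exact test, adjusted p = 1.47e-05, 0.00482 and 1.16e-15).

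Since the sites score higher in eWAT than the other classes, whose medians are 18.2, 17.2 and 13.2, the shares were also compared among high-scoring peaks, a setting chosen after seeing the data. In the upper 25% of the eWAT list 33.2% of the sites held an E-box, against 8.13%, 20% and 9.77%. In the upper 10% the shares were 39.8% against 8.82%, 27.7% and 12.1%, with adjusted p = 7.63e-06, 0.0174 and 1.18e-11 by Fisher's exact test.

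**Figure D3:**
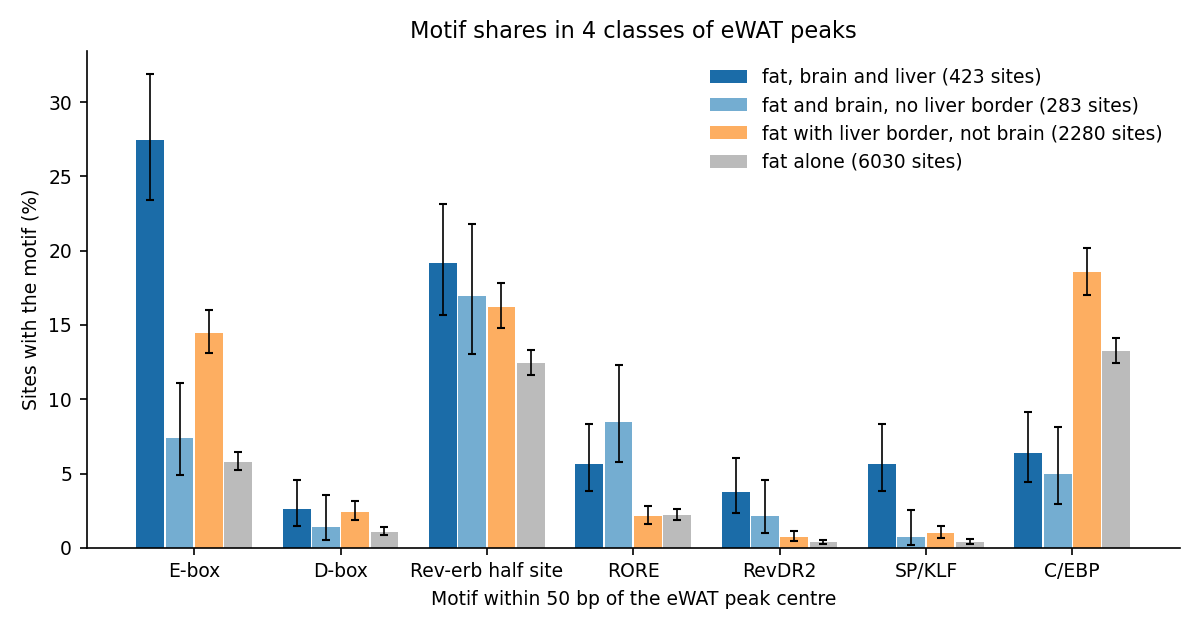
Bars show the share of sites (y axis, percent) with each motif (x axis) within 50 bp of the eWAT peak centre in 4 classes of eWAT peaks, with 95% Wilson intervals. The E-box share is 27.4% for the sites in fat, brain and liver and at most 14.5% elsewhere, while the C/EBP share is 6.38% against 18.6% and 13.3% in the classes without a brain peak.

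The receptor's own elements were found at fewer sites and were not called against the other peaks shared with brain. AGGTCA lay at 81 sites (19.1%), against 17.0% of peaks shared with brain without a liver border (exact test, adjusted p = 0.692) and 16.2% of those with a border but no brain peak (adjusted p = 0.333). Against the 12.5% in eWAT alone the exact test gave an adjusted p of 7.49e-04, and in the upper 25% of scores 0.216. Over 1 kb from starts the half-site share was 24.7%, above the E-box share of 21.4% there. Within 1 kb of a start the half-site share was 6.25% and the E-box share 41.4%. This order of the 2 motifs was not tested. The half-site share over 1 kb from starts was 17.6% in shared peaks without a border, 16.6% in peaks with a border but no brain peak and 12.8% in eWAT alone. The exact test gave adjusted p = 0.14, 0.00463 and 5.73e-07. A RORE lay at 24 sites (5.67%, 3.84 to 8.30) and at 8.48% of shared peaks without a border (odds ratio 0.65, 0.345 to 1.22, exact test, adjusted p = 0.352). Against the 2.15% and 2.19% in the remaining classes it was higher (exact test, adjusted p = 9.13e-04 and 4.53e-04). Over 1 kb from starts those calls were kept, at 7.80% against 2.20% and 2.27% (exact test, adjusted p = 2.20e-05 and 9.14e-06). The share there was 9.20% in shared peaks without a border (adjusted p = 0.903 by the exact test). Above the eWAT list's median score the calls were lost (exact test, adjusted p = 0.14 and 0.173). In the upper 10% of scores the odds ratios against these 2 classes were 0.949 (0.397 to 2.17) and 0.916 (0.368 to 2.22), with intervals that span 1.

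RevDR2 lay at 16 sites (3.78%), against 2.12%, 0.702% and 0.365% (odds ratios 1.81, 5.56 and 10.7, adjusted p = 0.452, 3.49e-05 and 5.36e-09 by Fisher's exact test). In the upper 10% of scores, where fewer peaks were compared, the last 2 were 0.22 and 0.298. Over 1 kb from starts the share was 5.42%, against 2.30%, 0.80% and 0.388% (exact test, adjusted p = 0.218, 2.83e-06 and 2.13e-10). The 16 sites did not all hold a single pair of half-sites. Within 50 bp of the centre 5 of the 16 had 2 half-sites, 3 had 3 and 8 had at least 4, up to 6. Such arrays were not particular to the sites. Of 16 peaks with a RevDR2 and a liver border but no brain peak, 7 had 2 half-sites and 6 had at least 4, up to 7. Of 6 shared peaks without a border, 2 had 2 half-sites, 3 had 3 and 1 had at least 4. For peaks in eWAT alone with a RevDR2, 16 of 22 had 2 half-sites and 2 had at least 4. Whether read mapping at such arrays affects the peak or border calls was not tested.

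Few sites combined an E-box with an element of the receptor. An E-box and a RORE or direct repeat were both held by 3 of the 423, and an E-box and AGGTCA by 9; whether this overlap differs from that of other peaks was not tested. Of the 36 with a RORE or direct repeat 1, the Npas2 site, lay within 1 kb of a start, against 53 of the 116 E-box sites (45.7%). E-box sites had a median eWAT score of 56.7, against 29.4 for sites without one, a median brain score of 52.7 against 40, and a median summed border signal of 4.92 against 2.01. Sites with a RORE or direct repeat had medians of 34.4, 40 and 1.88. In all, 204 sites (48.2%) held an E-box, half-site, RORE, direct repeat or D-box.

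**Figure D4:**
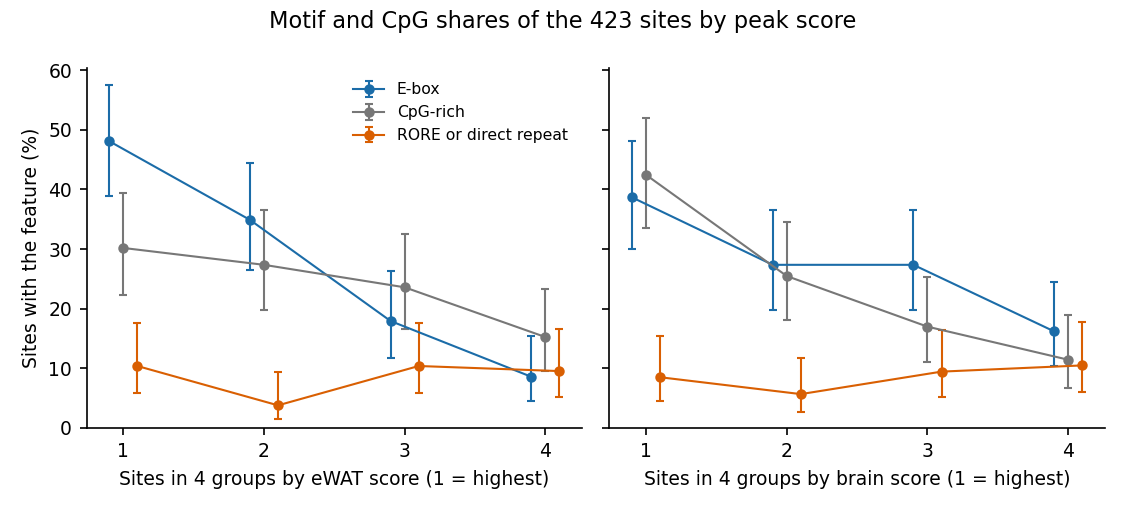
Points show the share of the 423 sites (y axis, percent, with 95% Wilson intervals) that hold an E-box, a RORE or direct repeat, or a CpG-rich window, in 4 groups of about 106 sites ordered by eWAT score (left) or brain score (right), group 1 being the highest. The E-box share is 48.1% in the highest eWAT group and 8.57% in the lowest, and 38.7% and 16.2% by brain score.

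By eWAT score the E-box share of the successive groups was 48.1%, 34.9%, 17.9% and 8.57%, and by brain score 38.7%, 27.4%, 27.4% and 16.2%. RORE or direct repeat shares had no such order, at 10.4%, 3.77%, 10.4% and 9.52% by eWAT score. CpG-rich windows went with the brain score, from 42.5% in the highest group to 11.4% in the lowest, and less steeply with the eWAT score, from 30.2% to 15.2%; this contrast was not tested.

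The very highest sites were not all E-box sites. Of the 5 leading ones by mean rank, the intergenic and proximal Nr1d1 sites, the Dbp site at rank 3 and the Per2 site had no E-box fully within 50 bp, and the intronic Nr1d1 site had 2. At the intergenic Nr1d1 site the nearest E-box was centred 53.5 bp away, at the Dbp site 48.5 bp and so partly beyond the window, and at Katnal1 72.5 bp. The proximal Nr1d1 site had no E-box, D-box, RORE or AGGTCA within 300 bp of the centre. Absence of these letters says nothing about which factor was bound.

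E-boxes lay close to the centres in both tissues. The 116 sites held 138 of them, 94 sites 1 and 22 sites 2, at a median of 19.5 bp from the eWAT centre, with 86 within 25 bp. Around the brain centres there were 135, at a median of 20.5 bp. An E-box lay within 50 bp of either centre at 139 sites and of both at 89. In the 22 sites with 2, the bases between the E-boxes ran from 6 to 75, and 6 or 7 bases, the spacing of tandem E-boxes, was found at 3.

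Liver borders flanked the E-box at a recurring distance. Among the 94 sites with exactly 1 E-box, the most frequent position of a plus-strand border was 11 bases before it (13 of 69 such borders within 30 bases) and of a minus-strand border 10 bases after it (17 of 72). A plus border at 8 to 14 bases before the E-box was found at 34 sites (36.2%) and at the mirrored place after it at 3 (3.19%). For minus borders the counts were 35 (37.2%) after and 4 (4.26%) before, and 14 sites (14.9%, 9.08 to 23.5) had both. For the 290 such E-box peaks with a liver border but no brain peak the shares were 22.4% and 24.8%, with both at 7.24%. Exonuclease digestion from each 5′ end stops at crosslinked protein, and such a pair of borders marks the edges of the protected DNA.

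**Figure D5:**
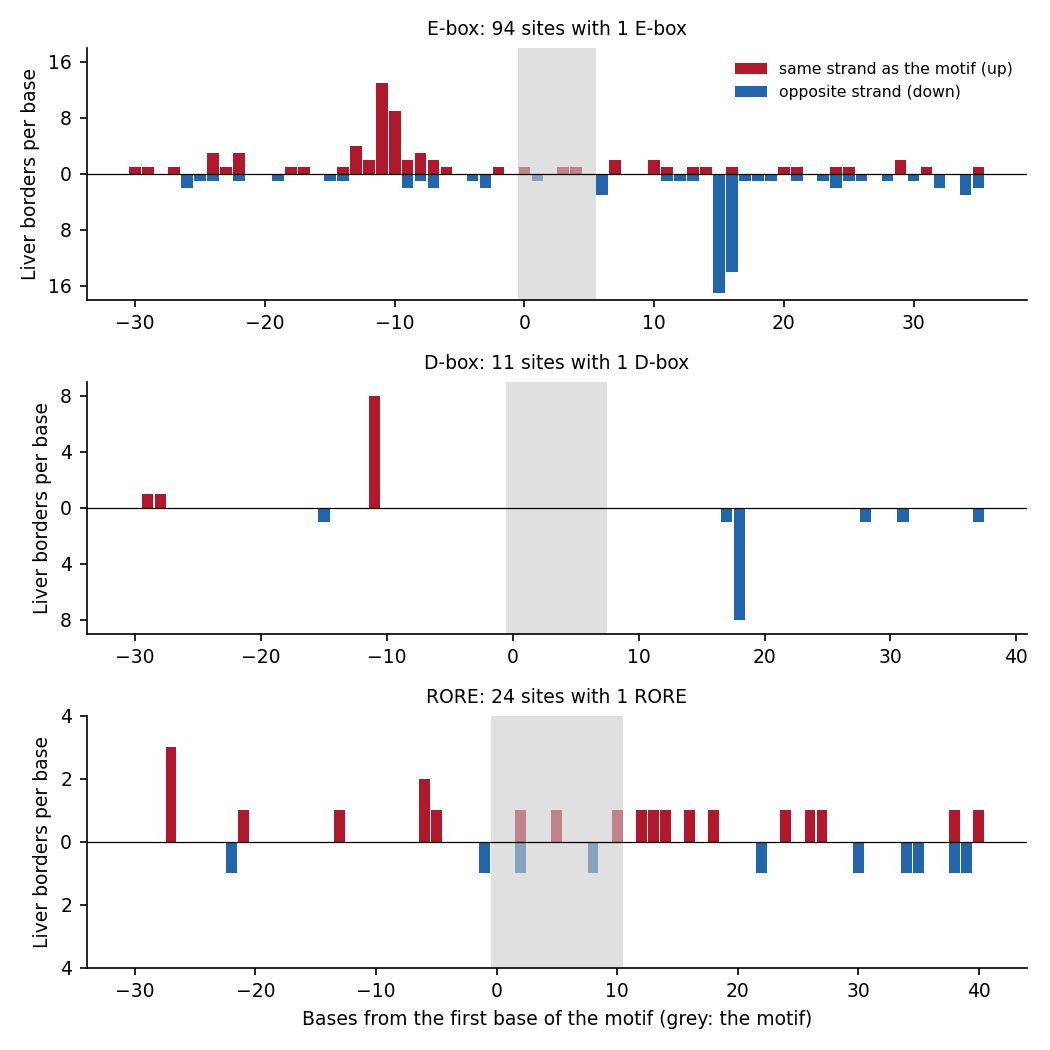
Bars count liver ChIP-exo borders at each base (x axis, bases from the first base of the motif, motif shaded) around single E-boxes, D-boxes and ROREs of the sites, upward for the motif's strand and downward for the opposite strand, the plus strand being taken for the palindromic E-box. Borders gather about 11 bases outside the E-box and D-box on both sides, and the 24 RORE sites show no base with more than 3 borders.

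D-boxes showed the sharpest borders, a trait shared with eWAT peaks that had a liver border but no brain peak. A D-box lay at 11 sites (2.60%), and 8 of the 11 had a border on its strand at exactly 11 bases before it and 8 on the other strand at 11 bases after it. Borders at 8 to 14 bases were found before it at 8 sites, after it at 9 and on both sides at 6 (54.5%, 28.0 to 78.7), and at the mirrored places at 0. The comparator was 49 peaks with 1 D-box and a liver border but no brain peak. Their most frequent positions were also 11 bases before and after. There the counts were 22 before, 23 after and 12 on both sides (24.5%, 14.6 to 38.1), and 5 and 3 at the mirrored places. The D-box sites had a median eWAT rank of 135, a median brain rank of 73 and a median summed border signal of 13.6, and 7 were within 1 kb of a start. Per2, Igsf8, Nr1d2, Fam76a and Coq10b were among them. The D-box share was called only against peaks in eWAT alone (1.08%, odds ratio 2.45, adjusted p = 0.0428 by Fisher's exact test). Over 1 kb from starts that call was lost with an odds ratio of 1.24 (exact test, adjusted p = 0.831). It missed the threshold at odds ratios near or above the first one with borders within 200 bp (2.23, exact test, adjusted p = 0.059), 1 site per 10 kb (2.41, 0.0709) and in the upper 25% of scores (2.95, 0.0701).

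Borders at 8 to 14 bases on both sides were not found at the receptor's elements, on few sites. Whether borders gather at other distances from these elements was not tested. Of the 24 sites with 1 RORE, 1 had a border at 8 to 14 bases before it, 1 had one after it and 0 had both, which allows a share of up to 12.5% (3 counts of the total). Of 36 sites with 1 extended half-site (TAGGTCA) the counts were 5, 4 and 0, and of 7 with 1 RevDR2 match 2, 0 and 0. The Wilson intervals of these last 0 counts reach 9.64% and 35.4%. At the mirrored places after and before the element, the counts were 2 and 0 for the RORE. They were 5 and 1 for the extended half-site and 1 and 0 for RevDR2. Around C/EBP motifs (TTGCNNAA) the counts at 8 to 14 bases were 4, 8 and 2 of 26 sites, and 99, 64 and 27 of 377 among peaks with a liver border but no brain peak. The most frequent position was 11 bases on either side of the C/EBP motif in both sets. In the sites it held only 3 of 15 borders on the motif's strand within 30 bases, and 6 of 25 on the other strand. In the other set it held 49 of 238 and 31 of 223. At the mirrored places the counts were 0 and 3 of the 26 sites, and 14 and 5 of the 377 peaks.

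Among the other motifs, the extended half-site lay at 10.2% of the sites, against 10.2%, 4.43% and 4.33% (adjusted p = 1, 5.38e-05 and 8.47e-06 by Fisher's exact test). Above the median eWAT score the last 2 were 0.00358 and 0.00271, and in the upper 25% of scores 0.0627 and 0.465. Over 1 kb from starts the share was 13.6%, against 10.3%, 4.65% and 4.50% (exact test, adjusted p = 0.539, 5.73e-07 and 5.83e-08). The SP/KLF box GGGGCGG lay at 5.67%, against 0.707%, 0.965% and 0.381% (exact test, adjusted p = 0.00125, 6.00e-08 and 2.50e-15), and over all brain peaks at 7.93%. Away from starts its share was 2.37%, no longer called against shared peaks without a border (0.766%, exact test, adjusted p = 0.393). ETS (CCGGAAG, 2.36%), NRF1 (GCATGCGC, 1.42%) and CTCF (AGGGGGC, 3.78%) were called against the classes without a brain peak only. Above the median eWAT score their calls against peaks with a border but no brain peak were lost (exact test, adjusted p = 0.0883, 0.34 and 0.182). Over 1 kb from starts CTCF was lost in both comparisons (exact test, adjusted p = 0.314 and 0.225), NRF1 against peaks with a border (0.127) and ETS against peaks in eWAT alone (0.0541). In the upper 10% of scores none of the 3 was called. C/EBP, a motif of factors that drive fat and liver genes, was the one called lower, at 6.38% against 18.6% of peaks with a border but no brain peak and 13.3% of those in eWAT alone (exact test, adjusted p = 3.19e-10 and 8.47e-05). Over all brain peaks it was 3.97%.

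In count, 2 of the 20 motifs (10%) were called against shared peaks without a liver border, the E-box and SP/KLF. Against peaks with a border but no brain peak 9 (45%) were called, 8 of them higher in the sites, and against peaks in eWAT alone 11 (55%), 10 of them higher. DR4, the CRE TGACGTCA and the NF1 palindrome were found at 0 of 423 sites, which allows a share of up to 0.709% (3 counts of the total), and NFY, YY1, HNF6, FOXA, AP-1 and DR1 were not called in any comparison.

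A search without fixed motifs gave the same leading word. Of 8186 7-mers, counted together with their reverse complements, 339 (4.14%) were more frequent in the sites than in peaks in eWAT alone and 16 (0.195%) less frequent (Fisher's exact test, adjusted over all 7-mers). The lowest p-values of the exact test belonged to the E-box words CACGTGG (15.1% against 2.35%, adjusted p = 6.26e-24), CACGTGC (14.7% against 3.15%, 2.33e-17) and CACGTGA (12.3% against 2.24%, 8.39e-17).

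The other 7 of the 10 leading words were GC-rich and each held CG. CCCGCCC lay at 6.86% of the sites and at 0.663% of peaks in eWAT alone, and CGCGTGC at 6.15% and 0.481%. The remaining ones were CCGCCCC (5.67%), then CGCCCCG (4.02%), CACGCGC (5.20%), CCCCGCC (6.15%) and CGCACGC (4.49%), each at or under 0.680% in eWAT alone. Of the 339 more frequent words, 18 held at least the first or last 5 bases of the E-box and 277 others held CG. Over all 8186 words tested the counts were 44 and 2710. By the exact test, the less frequent words were led by TGCAACA (0.236% against 2.92%, adjusted p = 0.00723). It was followed by ATGAAAT (0.236% against 2.70%), CAGAAGA (0.709% against 3.60%), AACATTC (0.473% against 2.97%) and ATGGGAA (0.236% against 2.47%). None of the 16 held CG, beside 2754 of the 8186 words tested. Over 1 kb from starts, where the CpG-rich windows were few, 49 words were called, all higher in the sites.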

How the data were processed

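Rev-erbα ChIP-seq (eWAT, brain) and ChIP-exo (liver) lists were analysed. The submitters' processing notes name mm9, Bowtie 0.12.8 (ChIP-seq), Bowtie 1.1.1 (ChIP-exo) and HOMER, without roles. How the callers were set, whether inputs were used and whether replicates were pooled is not stated. The deposited peak score has no stated unit. Per the file headers, the deposited borders carry a signal and a p-value, at most 0.05 in the list.

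The authors' lists were joined in Python 3.11.15 (pandas 2.3.3, scipy 1.17.1) with the mm9 (NCBIM37) sequence and GENCODE vM1 genes. Members and lists were chosen with earlier results of these data known. Comparators were eWAT peaks shared with brain without a border (283), with a border but no brain peak (2280) and with neither (6030). Ties in rank share the lowest rank. Motifs were exact matches on both strands within 50 bp of the eWAT centre, except RORE, where the half-site RGGTCA follows a degenerate A/T-rich stretch of 5 bases, and RevDR2, DR1 and DR4, repeats of RGGTCA (R is A or G) spaced by 2, 1 and 4 bases. A RORE or direct repeat can hold a half-site. Shares over all 9016 eWAT windows were 9.06% for the E-box, 13.9% for the half-site, 2.54% for the RORE, 0.665% for RevDR2 and 1.50% for the D-box. The tests were checked on simulated sequences with planted motifs and the same base composition in every class. That check does not cover the CpG differences between the real classes. The threshold was an adjusted p of 0.05.

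Named sites were the 20 with the best mean rank, up to 4 per gene list by eWAT score, the 5 with the highest border signal, the 3 on each side of the border limit, and the 10 leading 7-mers with the 5 leading lower ones. Results for 2 list genes are not reported here. Alternatives changed the overlap, border distance, score range, window, distance to starts and thinning to 1 site per 10 kb.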

Additional observations from a re-analysis of the deposited data

How the results depend on the processing

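The E-box, start and CpG comparisons kept their direction and their calls under every alternative run for them. For the E-box these gave odds ratios that stayed above 1 against all 3 classes, the lowest being 1.69 (over 1 kb from starts, against peaks with a border but no brain peak). Other counts moved. The number of called motif comparisons was 22, and it was 13 in the upper 25% of eWAT scores and 7 in the upper 10%. The number of called 7-mers was 355, and it was 49 over 1 kb from starts and 697 in a 75 bp window. Requiring a border pair left 208 of the 423 sites. The number of peaks compared is smaller in the score and start settings, and the cause was otherwise not tested.

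Results that turned direction were none of the calls except for the RORE. In the upper 10% of scores its odds ratios were 0.949 and 0.916 against the 2 classes without a brain peak, with intervals that span 1. Against shared peaks without a border, none of the following was called in either direction. The extended half-site went from 0.99 to 1.38 (75 bp overlap), 1.03 (border within 50 bp), 1.01 (1 site per 10 kb), 1.17 (brain centre), 1.36 (over 1 kb from starts) and 1.25 (upper 10%). The half-site went to 0.983 (border within 200 bp) and 0.935 (upper 10%), RevDR2 to 0.841 (upper 10%), the RORE to 1.05 (brain centre) and the D-box to 0.883 (over 1 kb from starts). NRF1 went to 0.918 (border within 50 bp), 0.333 (25 bp window) and 0.954 (upper 25%). The D-box against peaks with a border but no brain peak went to 0.515 over 1 kb from starts.

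The SP/KLF comparison with shared peaks without a border gave no odds ratio in the upper 25% and 10% of scores, where 0 comparator peaks held the box. No paired analysis was possible because each group has 1 list. With unknown depth, an unshared peak may lie under a caller's threshold in the other tissue.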
